A study of Mus musculus with 4 samples.

Results

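The miR-181 family was examined with all of its arms in small RNA libraries from the medial prefrontal cortex of the mouse. Its members were taken as every listed miRNA whose name begins with miR-181, which gave 10 of the 1038 known miRNAs. They are 4 arms from the 5′ side of the hairpin (5p) and 6 arms from the 3′ side (3p). Both groups were male juvenile mice, C57BL/6 in the labels and C57BL/6J in the methods, that entered the experiment from postnatal day 21. After 1 week of adaptation, one group went through chronic unpredictable mild stress (CUMS), a schedule of varied mild stressors, for 3 weeks. The other group was kept as a control without the stressors. The CUMS mice that were sequenced were those that had changed in all 3 behaviour tests of depression-like state, so they are a selected share of the stressed mice. Each group held 2 libraries. RNA was extracted mouse by mouse, but the sources used here do not say whether a library holds 1 mouse or several, so the spread between libraries may be partly technical.

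A miRNA hairpin is cut into a duplex of which either arm can be loaded into an Argonaute protein, and the loaded arm pairs with messenger RNAs mainly through its seed, bases 2 to 8 from its 5′ end. Arms with the same seed can pair with the same sites and are therefore grouped as a family. The miR-181 family is abundant in brain and in lymphocytes, where it is known for setting the threshold of antigen receptor signalling in T cells, and in neurons it has been linked to AMPA receptor subunits and to the response to stress of the endoplasmic reticulum.

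The mature sequences show what the members share and where they differ. They are RefSeq sequences for the mouse build GRCm38.p6, written 5′ to 3′ with the seed in capitals, and all 10 members had an entry. The 4 arms of the 5′ side come first.

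miR-181a-5p: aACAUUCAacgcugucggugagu

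miR-181b-5p: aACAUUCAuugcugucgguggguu

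miR-181c-5p: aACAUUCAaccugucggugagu

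miR-181d-5p: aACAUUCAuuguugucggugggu

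The seed ACAUUCA was found on 4 mouse miRNAs in RefSeq, which are exactly these 4 arms. Their summed level is therefore called the pool with that seed, with the limit that only the 884 of the 1038 listed miRNAs with a RefSeq sequence could be searched. Counted from 1 at the 5′ end, miR-181b-5p differed from miR-181a-5p by A9U, C10U and A21G and has 1 more base at its 3′ end. miR-181d-5p differed from miR-181b-5p by C12U alone over the bases they share. miR-181c-5p was 1 edit away from miR-181a-5p, being 22 nt long against 23 nt. All of these differences lie outside the seed. The 6 arms of the 3′ side fell into 4 seeds.

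miR-181a-1-3p: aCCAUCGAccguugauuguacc

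miR-181c-3p: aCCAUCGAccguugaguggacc

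miR-181a-2-3p: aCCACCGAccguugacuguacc

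miR-181b-1-3p: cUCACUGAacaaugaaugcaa

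miR-181b-2-3p: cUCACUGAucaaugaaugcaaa

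miR-181d-3p: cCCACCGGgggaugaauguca

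miR-181a-1-3p and miR-181c-3p have the same seed although they come from different chromosomes, and differed from each other by U16G and U19G. miR-181a-2-3p differed from miR-181a-1-3p by U5C, which lies in the seed, and by U16C. The pair from the miR-181b hairpins has the seed UCACUGA and differed by A9U. The longest stretch shared by any of the 45 pairs of members was 15 nt, and the reads were matched without mismatches over at least 16 nt, so a read that reaches this overlap fits a single member. This does not cover errors in the reads themselves, which were not tested.

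The 6 hairpins lie in 3 pairs (GENCODE M21 on GRCm38). Mir181a-1 at chr1:137966455-137966541 and Mir181b-1 at chr1:137966639-137966718, both on the plus strand and 97 nt apart, lie in an intron of the noncoding transcript Gm4258 and overlap an exon of the noncoding RNA A430106G13Rik. Mir181a-2 at chr2:38852735-38852810 and Mir181b-2 at chr2:38853830-38853918, on the plus strand and 1019 nt apart, lie within an intron of Nr6a1, a nuclear receptor gene that is transcribed from the opposite strand. Mir181d at chr8:84178716-84178787 and Mir181c at chr8:84178873-84178961, on the minus strand and 85 nt apart, lie in an intron of Nanos3, a germ cell gene on the same strand. On the opposite strand, Mir181a-1 and Mir181b-1 also lie in an intron of the noncoding RNA Gm26936. Mir181b-2 also overlaps an exon of Gm44144, again on the opposite strand. miR-181a-5p and miR-181b-5p have identical sequences at both of their loci, so reads of them cannot be told apart by locus. The 3p arms do tell the loci apart.

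The deposited table holds the mean normalised read count of each group, from which the reads of single libraries could be solved as whole numbers. Their totals on known miRNAs ranged from 9589323 to 10783592 reads, with size factors between 0.944 and 1.06. The libraries of a group are named a and b, in order of size factor, because the means do not show which is replicate 1 or 2. Control library b stood apart. The 14 listed miRNAs of the miR-183 cluster (with miR-182 and miR-96) and the miR-200 family, which mark epithelium and sensory cells, made up 9.32% of its reads and between 0.0393% and 0.0722% of the other 3, mostly as miR-182-5p. The neuronal markers miR-124-3p, miR-128-3p and miR-138-5p and the neural miRNA miR-9-5p were high in all 4 libraries, at a summed level of 220459 to 266259 normalised reads for the former and 501726 to 730096 for the latter. Of the other marker lists, the oligodendrocyte miRNAs miR-219a-2-3p and miR-338-3p summed to 6011 and 7154 normalised reads in the 2 CUMS libraries, below the 7693 and 8173 of the controls. The 2 muscle miRNAs summed to 194 and 197 normalised reads under CUMS, below 226 and 348 in the controls. This sum is almost all miR-133a-3p, since miR-1a-3p lay between 0 and 8.48 normalised reads and was highest in CUMS library b. The summed levels of the endothelial (12754 to 14763), red cell (378 to 585) and leukocyte lists (3920 to 5388) overlapped between the groups. miR-155-5p, which belongs to the leukocyte list, lay between 0.942 and 4.89 normalised reads. Of the single markers in these lists, miR-124-3p was higher in both CUMS libraries (29393 and 35217) than in the controls (25922 and 23143), whereas miR-126a-3p (1735 and 1589 against 1810 and 1868) and miR-142a-3p (40.5 and 45.6 against 49.9 and 64.0) were lower in both. The other arms, miR-126a-5p (11285 and 13174 against 11883 and 10886) and miR-142a-5p (1352 and 1571 against 1356 and 1165), overlapped between the groups. So did the neuronal markers miR-128-3p and miR-138-5p. Groups without overlap were found for 33.8% of the 719 miRNAs with 5 or more reads in at least 1 library. The part of these cells in the miR-181 levels was not tested, and in a tissue sample fewer cells of a type and less RNA per cell cannot be told apart.

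miR-181a-5p (mmu-miR-181a-5p in the table) had the highest mean level of all miRNAs listed. Control libraries a and b held 1338941 and 1470329 of its reads, and CUMS libraries a and b held 1481097 and 1445708. It took 12.7% and 13.6% of all miRNA reads of the controls, against 14.2% and 15.1% under CUMS. Next in the order of mean levels was let-7f-5p, which was lower than miR-181a-5p in 3 of 4 libraries but higher in control library a, so the first place is not separated from the second beyond the spread.

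mmu-miR-181b-5p took rank 25, and its reads numbered 90873 and 99858 (control a and b) against 87152 and 93974 (CUMS a and b). mmu-miR-181c-5p took rank 28, with 54922 and 57378 reads (control) against 60375 and 52197 reads (CUMS). mmu-miR-181d-5p took rank 77, with 9314 and 9469 reads (control) against 8622 and 9188 reads (CUMS). Within the pool of the shared seed, miR-181a-5p made up 89.6% to 90.5% of the reads, miR-181b-5p 5.32% to 6.10%, miR-181c-5p 3.26% to 3.69% and miR-181d-5p 0.527% to 0.623%. The 4 members thus kept the same order in every library.

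Each 3p arm had fewer reads than the 5p arm of the same letter (a, b, c or d) in every library. mmu-miR-181a-1-3p, at rank 79, was read 8334 and 8563 times (control a and b) against 9700 and 8187 times (CUMS a and b). mmu-miR-181a-2-3p, at rank 85, was read 6473 and 6450 times (control) against 7812 and 5834 times (CUMS). mmu-miR-181c-3p, at rank 127, was read 2366 and 2285 times (control) against 2502 and 2527 times (CUMS). The remaining 3 had at most 37 reads in a library, and miR-181d-3p and miR-181b-2-3p lay at or below 3 reads in at least 2 of the 4 libraries. mmu-miR-181b-1-3p, at rank 410, was read 31 and 25 times (control) against 28 and 37 times (CUMS). mmu-miR-181d-3p was read 0 and 6 times (control) against 10 and 1 times (CUMS), and mmu-miR-181b-2-3p 2 and 0 times (control) against 0 and 1 times (CUMS). A count of 0 allows up to 3 reads, between 2.78e-05% and 3.13e-05% of a library. This limit covers counting error alone, since PCR copies were not told apart by molecular identifiers.

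**Figure D1:**
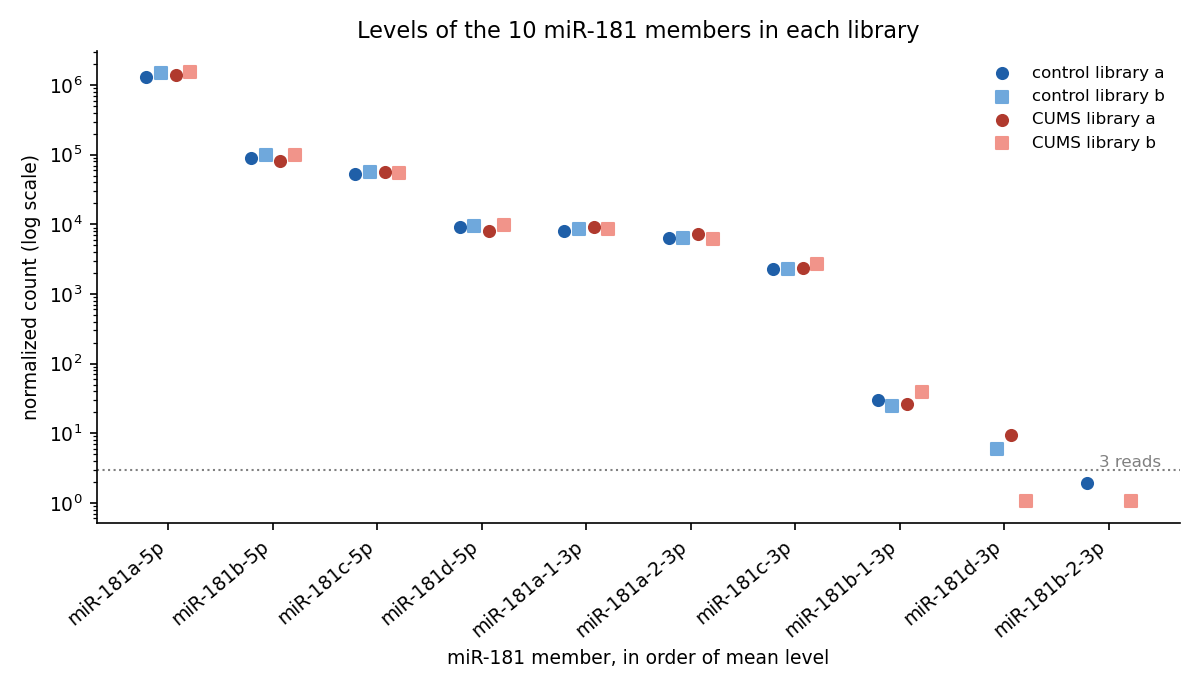
Normalised read count (log axis) of each of the 10 miR-181 members in each of the 4 libraries, in order of mean level, with control libraries in blue and CUMS libraries in red. miR-181a-5p lies between 1309680 and 1531755, miR-181d-5p and miR-181a-1-3p lie at the same height, and values of 0 cannot be drawn on a log axis and are left out (miR-181d-3p in control library a, and miR-181b-2-3p in control library b and CUMS library a). The dotted line marks 3 reads.

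In this order, the only neighbours within the family whose ranges over the 4 libraries overlapped, apart from the members with few reads, were miR-181d-5p and miR-181a-1-3p. The normalised level of miR-181d-5p ran from 8118 to 9735 and that of miR-181a-1-3p from 8152 to 9133, and miR-181d-5p was the higher one in 3 of 4 libraries. Against the miRNAs listed next to them, miR-181b-5p overlapped with miR-191-5p above it and was apart from miR-30d-5p below it, while miR-181c-5p was apart from miR-411-5p above it and overlapped with miR-410-3p below it. The members from rank 77 to rank 127 overlapped with both of their neighbours, which were miR-136-5p, miR-221-3p, miR-153-3p, miR-10b-5p, miR-132-3p, miR-3099-3p and miR-673-3p. The mature miRNAs of the family are 21 to 24 nt long, so length hardly enters these comparisons of level. How efficiently each sequence was ligated and amplified was not tested.

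The arms of one hairpin are made in equal number, so unequal reads can come from unequal accumulation. They also carry any difference in ligation and amplification between the sequences, which was not tested. For miR-181c the 3p arm made up 4.13% and 3.83% (control) and 3.98% and 4.62% (CUMS) of the reads of both arms. For miR-181a, with both loci summed, the 3p arms made up 0.961% to 1.17%. For miR-181b they made up 0.0250% to 0.0404%, and for miR-181d 0% to 0.116%. The order of miR-181c before miR-181a before miR-181b held in each library. miR-181a-1-3p and miR-181b-1-3p come from hairpins 97 nt apart, yet the former had 221 to 346 times as many reads.

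The study asked which miRNAs differ between CUMS-induced depression-like mice and controls. For the miR-181 family the levels of the groups lay close together. After division by size factors, miR-181a-5p was at 1309680 and 1469741 normalised reads (control a and b) against 1394548 and 1531755 (CUMS a and b). The means were 1389711 ± 113180 (SD, n = 2) and 1463151 ± 97020 (SD, n = 2), a fold of 1.05 and a log2 ratio of 0.07. Both CUMS libraries lay above control library a, but CUMS library a lay below control library b, so the groups overlapped.

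miR-181b-5p was at 88887 and 99818 normalised reads (control) against 82059 and 99567 (CUMS), a log2 ratio of -0.06. miR-181c-5p was at 53722 and 57355 (control) against 56847 and 55304 (CUMS), a log2 ratio of 0.01. miR-181d-5p was at 9110 and 9465 (control) against 8118 and 9735 (CUMS), a log2 ratio of -0.06. All 3 overlapped between the groups, and miR-181b-5p and miR-181d-5p were both lowest in CUMS library a.

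Among the 3p arms, miR-181a-1-3p was at 8152 and 8560 normalised reads (control) against 9133 and 8674 (CUMS), a log2 ratio of 0.09, and both CUMS values exceeded both control values. miR-181a-2-3p was at 6332 and 6447 (control) against 7355 and 6181 (CUMS), a log2 ratio of 0.08 with overlapping groups. miR-181c-3p was at 2314 and 2284 (control) against 2356 and 2677 (CUMS), a log2 ratio of 0.13, and again both CUMS values exceeded both control values. Both miR-181a arms were highest in CUMS library a, where miR-181b-5p and miR-181d-5p were lowest. With 2 libraries against 2, the smallest two-sided exact permutation p is 0.333, and both miR-181a-1-3p and miR-181c-3p reached this value, which the design keeps above 0.05. Adjusted over the 8 members with reads in all libraries, each exact permutation p was 1.

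The spread between libraries of one group set the scale. For the 7 members with a mean of at least 50, the 2 control libraries differed on the log2 scale by 0.02 (miR-181c-3p) to 0.17 (miR-181a-5p and miR-181b-5p) and the 2 CUMS libraries by 0.04 (miR-181c-5p) to 0.28 (miR-181b-5p). For 6 of these 7 members, the larger of these gaps exceeded the difference between the group means. miR-181a-1-3p was the exception, with gaps of 0.07 in both groups beside a difference of 0.09.

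The count tests on recovered reads called no member. In edgeR's quasi-likelihood test over 719 miRNAs (5 or more reads in at least 1 library), 9 members were tested, since miR-181b-2-3p had too few reads. At an adjusted p under 0.05 the test called 0 of the 719 miRNAs (0%), and 30 (4.17%) had an unadjusted p under 0.05. DESeq2 called 0 (0%) and 24 (3.34%) at the same thresholds. None of the 9 members passed any of these thresholds. The Benjamini-Hochberg adjusted p of edgeR's test for them ranged from 0.931 to 0.984, and the smallest unadjusted p, for miR-181d-5p, was 0.564 in this quasi-likelihood fit. The DESeq2 log2 estimates of the 7 abundant members had standard errors of 0.17 to 0.19, and the 95% intervals of their folds together ran from 0.745 to 1.41, so none of these intervals reached a fold of 1.5 in either direction. For miR-181b-1-3p the interval ran from 0.470 to 2.96, and for miR-181d-3p from 0.111 to 27.6, so these depths could show only large differences.

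**Figure D2:**
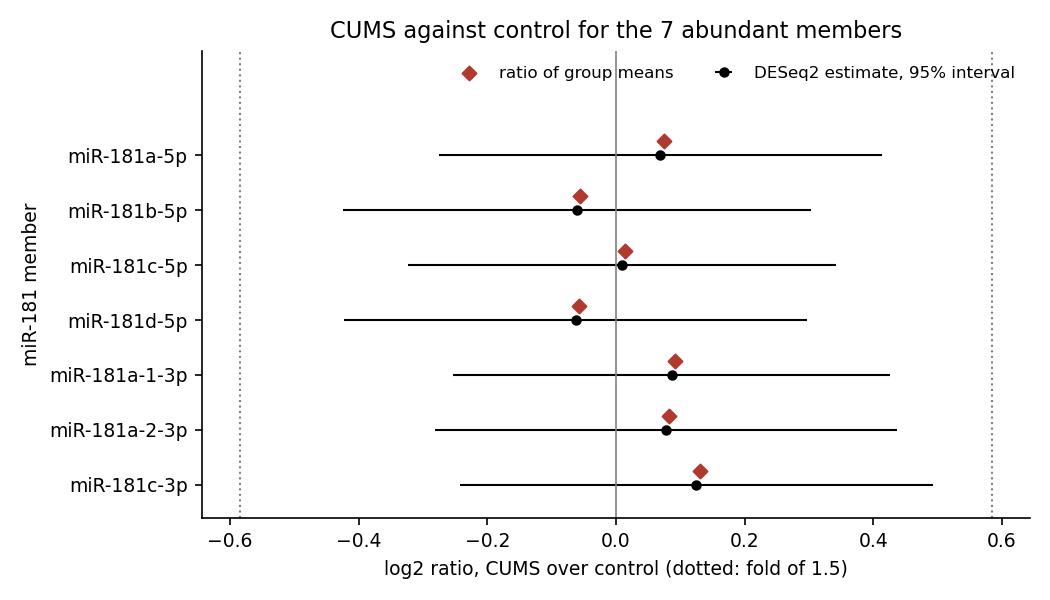
Log2 ratio of CUMS over control for the 7 miR-181 members with a mean of at least 50 normalised reads. Red diamonds are ratios of the group means (2 libraries each), black points are DESeq2 estimates with bars for 95% intervals, and dotted lines mark a fold of 1.5. The ratios lie between -0.06 and 0.13, all bars cross 0 and no bar reaches a dotted line.

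Of the 9 tested members, 7 had a higher mean in CUMS and the median log2 ratio was 0.08. Over the 701 tested miRNAs with reads in both groups, the median log2 ratio was 0.02. Of all 719 tested miRNAs, 52.3% were higher in CUMS. The median size of the log2 ratio in either direction was 0.28 over the 701 miRNAs against 0.08 over the 9 members. Among the 170 miRNAs with a mean of at least 1000, the class to which the 7 abundant members belong, these values were 0.02, 55.3% and 0.12. A fold above 1.5 was passed by 228 of the 719 miRNAs (31.7%) and by 1 of the 9 members. This was miR-181d-3p, with a mean of 3.00 in control and 5.24 in CUMS, a ratio of 1.75 that rests on 6 reads against 11. Both CUMS libraries lay on one side of both control libraries for 33.8% of the 719 miRNAs (16.7% above and 17.1% below) and for 2 of the 9 members, both above.

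The summed 5p arms, the pool with the seed ACAUUCA, amounted to 1461400 and 1636379 normalised reads (control a and b) against 1541572 and 1696360 (CUMS a and b). The means were 1548889 ± 123729 (SD, n = 2) and 1618966 ± 109452 (SD, n = 2), a log2 ratio of 0.06, with overlapping groups and a two-sided exact permutation p of 0.667. The direction turned on single libraries, since the log2 ratio was -0.02 without control library a and -0.01 without CUMS library b, and 0.15 without control library b. The summed 3p arms were at 16830 and 17322 (control) against 18880 and 17574 (CUMS), a log2 ratio of 0.09 with an exact permutation p of 0.333.

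Scaling changed how the groups lay. As a share of all miRNA reads, the summed 5p arms made up 14.2% and 15.2% (control) against 15.7% and 16.7% (CUMS), so the groups no longer overlapped. On this scale 4 of the 9 tested members had both CUMS libraries above both control libraries, namely miR-181a-5p, miR-181c-5p, miR-181a-1-3p and miR-181c-3p, beside 22.7% of the 719 miRNAs (34.5% in either direction, 11.8% below), and the log2 ratios of miR-181b-5p and miR-181d-5p turned to 0.02. With the 14 miRNAs of the miR-183 and miR-200 clusters left out of the totals, control library b rose to 16.7%, against 14.2% in control library a and 15.7% and 16.7% in the CUMS libraries, and the groups overlapped again. miR-181c-3p was then the only tested member whose CUMS values both exceeded both control values. The share of the 719 miRNAs without overlap was not computed on this scale, so nothing is read from this count.

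**Figure D3:**
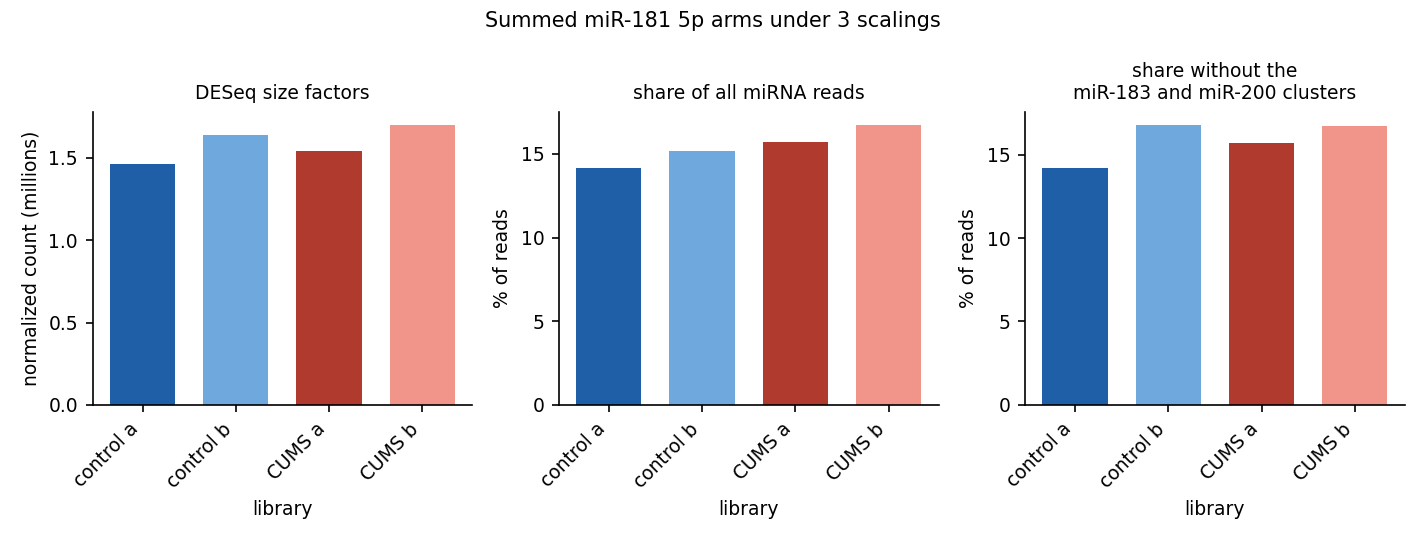
Summed miR-181 5p arms in each library, as reads normalised by size factors (left), as a percentage of all miRNA reads (middle) and as a percentage of the reads without the miR-183 and miR-200 clusters (right). In the middle panel the CUMS libraries, at 15.7% and 16.7%, lie above the control libraries, at 14.2% and 15.2%, whereas in the other panels control library b lies above CUMS library a.

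Ratios between members within a library do not depend on scaling. miR-181a-5p had 14.7 times the reads of miR-181b-5p in both control libraries, against 17.0 and 15.4 times under CUMS, a difference of 0.13 on the log2 scale. Both CUMS ratios lay above both control ratios, with an exact permutation p of 0.333, the smallest that the design allows, and the log2 difference fell to 0.06 without CUMS library a. miR-181a-1-3p had 1.29 and 1.33 times (control) and 1.24 and 1.40 times (CUMS) the reads of miR-181a-2-3p, a difference of 0.01 on the log2 scale (exact permutation p = 1). These arms come from chromosome 1 and chromosome 2, and their ratio is one of mature arms, not of the output of the loci. miR-181c-5p had 5.90 and 6.06 times (control) and 7.0 and 5.68 times (CUMS) the reads of its cluster partner miR-181d-5p (log2 difference 0.08, exact permutation p = 1). The 5p to 3p ratio of miR-181c was 23.2 and 25.1 (control) against 24.1 and 20.7 (CUMS) (log2 difference -0.11, exact permutation p = 0.667). Adjusted by Benjamini-Hochberg over the 9 ratios computed, each exact permutation p was 1.

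**Figure D4:**
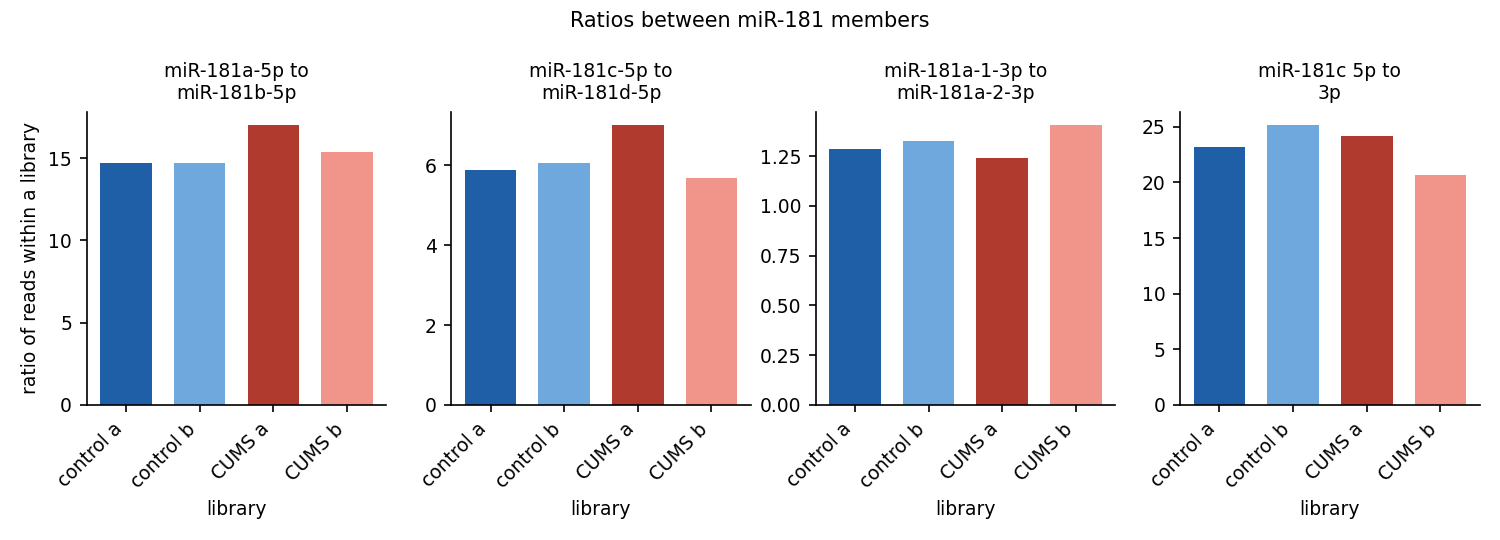
Ratio of reads within each library for 4 pairs of miR-181 members, on axes that start at 0, with control libraries in blue and CUMS libraries in red. For miR-181a-5p to miR-181b-5p both CUMS libraries (17.0 and 15.4) lie above both control libraries (14.7 each), and the groups overlap in the other 3 panels.

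The other abundant families gave a yardstick for the pool. The 9 let-7 and miR-98 5p arms made up 29.6% of control library a, 20.7% of control library b, and 21.3% and 22.7% under CUMS. With the miR-183 and miR-200 clusters left out of the totals, these shares were 29.7% and 22.9% (control) against 21.3% and 22.7% (CUMS). Both CUMS libraries then lay below both control libraries. After division by size factors the let-7 groups overlapped, at 3054699 and 2236275 normalised reads (control) against 2094866 and 2309491 (CUMS). The summed miR-181 5p arms were 0.478 times these let-7 reads in control library a and between 0.732 and 0.736 times in the other 3 libraries, so the difference between the groups in this ratio (0.31 on the log2 scale, exact permutation p = 0.333) came with control library a alone. Against the 5 miR-30 5p arms the ratio was 3.94 and 4.38 (control) against 4.54 and 4.01 (CUMS), with overlapping groups.

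The miRNAs most like the pool were looked for among the 163 miRNAs outside the family with a mean of at least 1000, by the root mean square difference in log2 deviations from the mean over the 4 libraries. The smallest values were 0.0204 for miR-140-3p, 0.0388 for miR-361-5p and 0.0469 for miR-26a-5p, beside a median of 0.157. Like the pool, miR-140-3p was lower in control library a (3069 normalised reads) and CUMS library a (3185) than in control library b (3313) and CUMS library b (3544). Within the family the value was 0.146 for miR-181a-2-3p and 0.0719 to 0.0862 for the members other than it and miR-181a-5p that have a mean of at least 1000. miR-181a-5p itself is most of the pool, and 4 libraries that share their size factors are few points for such a likeness.

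Targets of the shared seed were described by the letters TGAATGT, its complement, in the longest annotated 3′ UTR of each gene on the transcribed strand. These letters were found in 3447 of 21028 genes (16.4%). Of 11 genes listed from background knowledge as targets of the family, 9 held them, among them Gria2, an AMPA receptor subunit, with 2 matches, and Prox1, a homeobox factor, with 4. Hspa5, an endoplasmic reticulum chaperone, and Dusp6 held none. Because these 11 genes were picked as known targets, their count is no test of the seed. Of 16 genes taken from those that the study set beside miRNAs, which are not all of them, 3 held them (18.8%), which were Peg10, Cacna2d2, a calcium channel subunit, and the immediate early gene Fos, with 1 match each. The GABA transporter gene Slc6a11 and the glutamate decarboxylase gene Gad2 held none. The median length of the 3′ UTR was 960.5 nt over all genes, 1631 nt in the list of 11 and 1774 nt in the list of 16, and a longer UTR holds any 7 letters more often. A match is no measure of binding, and no match says only that these letters are not in this UTR.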

How the data were processed

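Small RNA of the medial prefrontal cortex was sequenced from 2 control and 2 CUMS libraries. Per the methods, reads of 18 to 25 nt were matched to miRBase precursors with no mismatch and an overlap of at least 16 nt, and groups were compared with DESeq (version not given in the sources used here). The submitters' processing notes name Bowtie and mm10. The signal deposited by the authors is the mean normalised count of each group for 1038 miRNAs. The authors also deposited an overall mean, fold changes and p-values of their comparison, which were not used. The columns were assigned to control and CUMS because the study prints their values under these names.

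A group mean is a sum of whole reads of 2 libraries, each times its own step. Solving for both gave whole reads for 100% of the 1038 values in both groups (relative residual under 1e-09), and median-of-ratios size factors over the 650 miRNAs with reads in all libraries equalled those of the steps. Among the 20 member values, 1 had another pair within 10 times the precision of its digits, miR-181a-5p in control, whose next best pair (2162 and 2778418 reads) missed by 12.2 times the residual of the best.

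The design planned a count test as an alternative. It was run with edgeR 4.0.16 (quasi-likelihood, TMM, at least 5 reads in 1 library) and DESeq2 1.42.0 (Wald) in R 4.3.3, with group as the only factor and Benjamini-Hochberg adjustment, after a test on simulated reads. Single values were compared by two-sided exact permutation tests over libraries. Other steps used Python 3.11.15 with numpy 2.4.6, pandas 2.3.3, scipy 1.17.1 and matplotlib 3.10.9. miRNAs named are the members, their neighbours in mean level, the 3 most like the summed 5p arms, marker lists, and the miR-183 and miR-200 clusters. The design counted 7 members, and the name rule found 10, all of which are described. Members and lists were chosen with earlier results of these data known. RefSeq gave a mature sequence for 884 of the 1038 miRNAs. Alternatives were other scalings, filters, fits, an added count of 1, and leaving out each library. Of the genes listed for seed matches, 1 is not reported here and was left out of the counts. The mRNA libraries were not analysed here.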

Additional observations from a re-analysis of the deposited data

How the results depend on the processing

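Over 150 alternatives, 144 values stayed within the spread between libraries or, for counts, within 1.5 times the reported count. The number of the 9 tested members past a fold of 1.5 ranged from 0 to 1 when single libraries were left out, with 0 without control library a, where miR-181d-3p fell to a log2 ratio of -0.20. The log2 ratio of miR-181d-3p, 0.80 with all libraries, was -1.50 without CUMS library a and 1.65 without CUMS library b. Its direction therefore turned on single libraries. The number of members with a higher mean in CUMS was 7 of 10 and ranged from 5 to 9. The log2 ratio of the summed 5p arms ran from -0.02 to 0.15 when single libraries were left out and from 0.04 to 0.14 under the other scalings. For the 7 abundant members the range was -0.20 to 0.22 without single libraries and -0.10 to 0.21 otherwise. Without CUMS library a, miR-181a-2-3p went from 0.08 to -0.05. Without CUMS library b, miR-181c-3p went from 0.13 to 0.04 and miR-181d-5p from -0.06 to -0.19. As a share of all miRNA reads, miR-181c-5p went from 0.01 to 0.09 and miR-181a-1-3p from 0.09 to 0.17. With the miR-183 and miR-200 clusters left out of the totals, these log2 ratios were 0.02 and 0.10. The cause was not tested. Without control library b, miR-181d-3p gave no ratio, since control library a held 0 reads. The edgeR and DESeq2 fits were not run on the summed arms, because a sum is no feature of these fits. No paired analysis was possible because the recovered libraries carry no replicate numbers. Depth limits miR-181b-1-3p, miR-181d-3p and miR-181b-2-3p, with at most 37 reads in a library.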
